A study of Mus musculus with 42 samples.

Results

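MHCII-low medullary thymic epithelial cells (mTEC) were compared with cortical thymic epithelial cells (cTEC), both of the genotype labelled KO, which the series' design text describes as a deletion of SKI restricted to thymic epithelium. The members were the libraries with that genotype and either of 2 cell type labels, 14 of the 42 libraries in all. The mTEC group held 7 libraries sorted as Epcam+CD45-UEA+Ly51loMHCIIlo, and the cTEC group held 7 sorted as Epcam+CD45-UEA-Ly51+. Control libraries of the same sorts, 5 labelled mTEC and 5 labelled cTEC, were set beside them. Each library was made from 200 sorted mouse cells by full-length cDNA synthesis and PCR, without molecular identifiers and without a mark of the strand. The labels name no Cre driver, strain, age or treatment and tie no library to an animal, so the p-values below reflect how much these libraries vary, and technical variation may be part of that. The question was which genes separate the medullary from the cortical lineage when SKI, a cofactor that represses SMAD-dependent transcription, has been targeted.

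Cortical epithelium attracts T cell precursors into the thymus and presents peptides, made in part by a thymus-specific proteasome, on which developing T cells are positively selected. Medullary epithelium presents tissue-restricted self-antigens. Its cells with low MHC class II are a mixture of immature cells and of differentiated cells that resemble peripheral epithelia, among them tuft, microfold, keratinocyte-like, enterocyte-like and neuroendocrine cells. In bulk RNA of such mixtures, fewer cells of a type and less RNA per cell cannot be told apart.

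The 14 libraries held 3217251 to 6409278 counts. Ski itself was low and variable: its level in CPM, which is the count scaled to a common library size, ran in the 7 mTEC libraries from 0.514 through a median of 6.18 to 17.8, and in the 7 cTEC libraries it ran from 0 through 10.3 to 42.7. The groups overlapped, cTEC replicate 2 had no Ski count, and cTEC replicates 1 and 4 had 194 and 220 counts. Reads that lie outside a deleted segment would still be counted, and the labels do not give the segment, so these values do not check the deletion. Ski did not pass the test between the subsets, with a log2 fold change of -1.32 (SE 1.13, adjusted p = 0.818, edgeR).

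Several libraries stood apart. cTEC replicate 5 was low in cortical genes, with 6.42 CPM of Psmb11, 3.86 CPM of Prss16 and 33.2 CPM of Ccl25, against at least 241.1, 216.4 and 677.1 CPM in each other cTEC library. Summed keratins were also low in cTEC replicates 5 and 6, at 592.6 and 944.6 CPM, against a cTEC median of 3400 CPM. Summed tuft cell genes in cTEC replicate 5, 611.6 CPM, were the highest of the cTEC libraries. Markers of other cell types were present in spite of the CD45- gate. Summed B cell markers reached 7931 CPM in cTEC replicate 5, 18920 CPM in cTEC replicate 6 and 23930 CPM in mTEC replicate 7, against 124 to 2241 CPM in the other 11 libraries. Above 5000 CPM of another list lay cTEC replicate 1 (6618 CPM of mesenchymal markers), cTEC replicate 4 (5011 CPM of thymocyte markers) and mTEC replicate 2 (12790 CPM of myeloid and dendritic cell markers). Ptprc, which encodes CD45, had 4.26 to 760.2 CPM in the mTEC libraries and 150.1 to 700.8 CPM in the cTEC libraries. Of the 14 tested myeloid and dendritic cell markers, 0 passed the threshold and 11 were positive, against 53.6% of all genes tested. An unadjusted p under 0.05 was found for 4, all higher in mTEC, against 6.57% of all genes. As for the lists below, nothing is read from these counts. The summed level of all 16 markers on that list ran from 822 through 3030 to 12790 CPM in mTEC and from 287 through 1832 to 3199 CPM in cTEC. Libraries also differed by library number. Of the 7 of each group, 4 carried lower numbers (an early set) and 3 higher numbers (a late set), and pairs of late libraries from different subsets correlated more closely (median rho 0.804 over 9 pairs) than pairs of early libraries from the same subset (median rho 0.647 over 12 pairs). The labels do not say what the sets are. The part that other cells, depth and the sets have in the results below was not tested beyond the values given beside them.

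**Figure D1:**
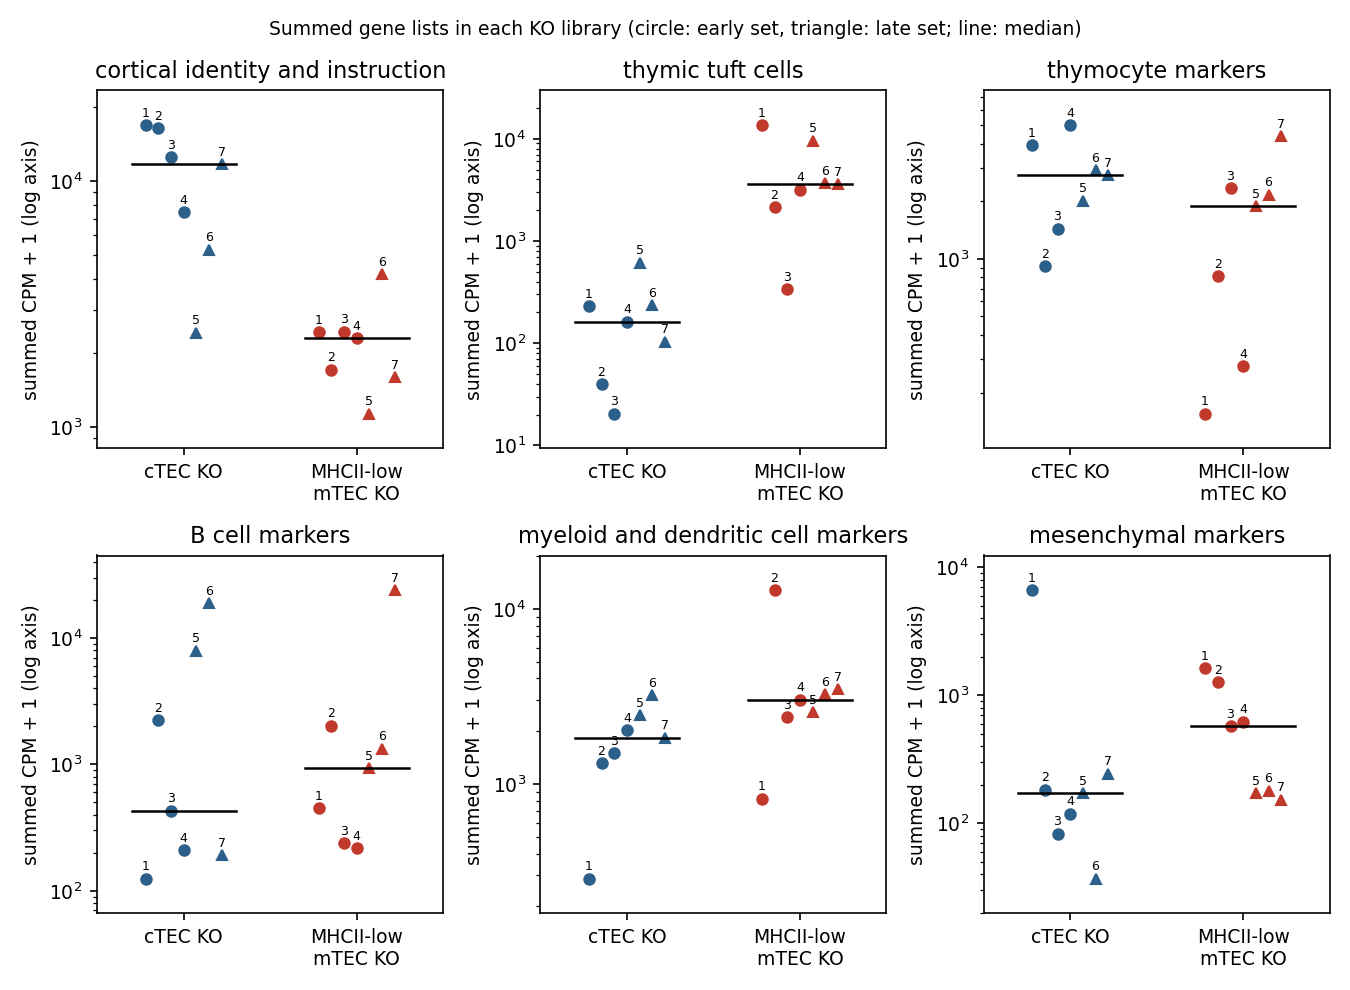
Summed CPM + 1 (log axis) of 6 gene lists in each KO library, cTEC in blue and MHCII-low mTEC in red, with replicate numbers beside the points, circles for the early and triangles for the late set, and a line at the median. Cortical genes are lowest among the cTEC libraries in replicate 5, at 2420 CPM, and B cell markers are highest in cTEC replicates 5 and 6 and mTEC replicate 7.

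The test of 11634 genes called 52, or 0.447% (edgeR's quasi-likelihood test, threshold 0.05 on the adjusted p). In mTEC 45 were higher (0.387%) and 7 lower (0.0602%), while 1165 genes had an unadjusted p under 0.05 (764 higher, 401 lower). Many of the genes that rose in mTEC had few or no counts in cTEC. For 9 of the 45 the cTEC libraries held no count at all, and for 40 of the 45 every mTEC library lay above every cTEC library. Of the 7 lower genes 3 were separated in this way. Over all genes tested the shares were 0.937% and 0.155%, but the 52 genes were called from the same 14 libraries, so nothing is read from these counts. Epcam, on which the cells were gated, was among the 45 and is not taken as a finding. The spread was wide, with a biological coefficient of variation of 1.08. The median log2 fold change of all genes was 0.07.

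The number of genes past the threshold depended on the method and on single libraries. DESeq2 called 1177 genes, 3.99% of the 29514 with any count, and limma voom called 157, 1.35% of 11634. All 52 and 40 of the 52 were among them. DESeq2 gives an adjusted p only to genes that pass its own filter, so its share is not set against the others. The edgeR number was 167 without cTEC replicate 1, 153 without cTEC replicate 2, 131 without cTEC replicate 5, 87 without cTEC replicate 4 and 81 without cTEC replicate 3. It was 27 without mTEC replicate 5, 31 without mTEC replicate 1 and 33 without mTEC replicate 4. Without the 6 libraries over 5000 CPM of another cell type's markers it was 9, with 3 of the 52 among them. Without the 3 over 5000 CPM of B cell markers it was 74, with 34 of the 52 among them. All 52 genes kept their sign in each of these fits. The fits reuse libraries that chose the 52 genes, so nothing is read from the kept signs. Of the 52, 23 passed in every one of the 14 fits that left out 1 library each: Mal2, Cadps2, Cdhr5, Tspan8, Krt23, Cystm1, Dsg1a, Sectm1b, Pde9a, Capg, Anxa13, Clic3, Wee2, Wfdc18, Mgst3, Myh14, Nxpe2, Neurl1a, Clca3a2, Cryba2 and Ly6g6e rose, and Itm2c and Laptm4b fell.

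**Figure D2:**
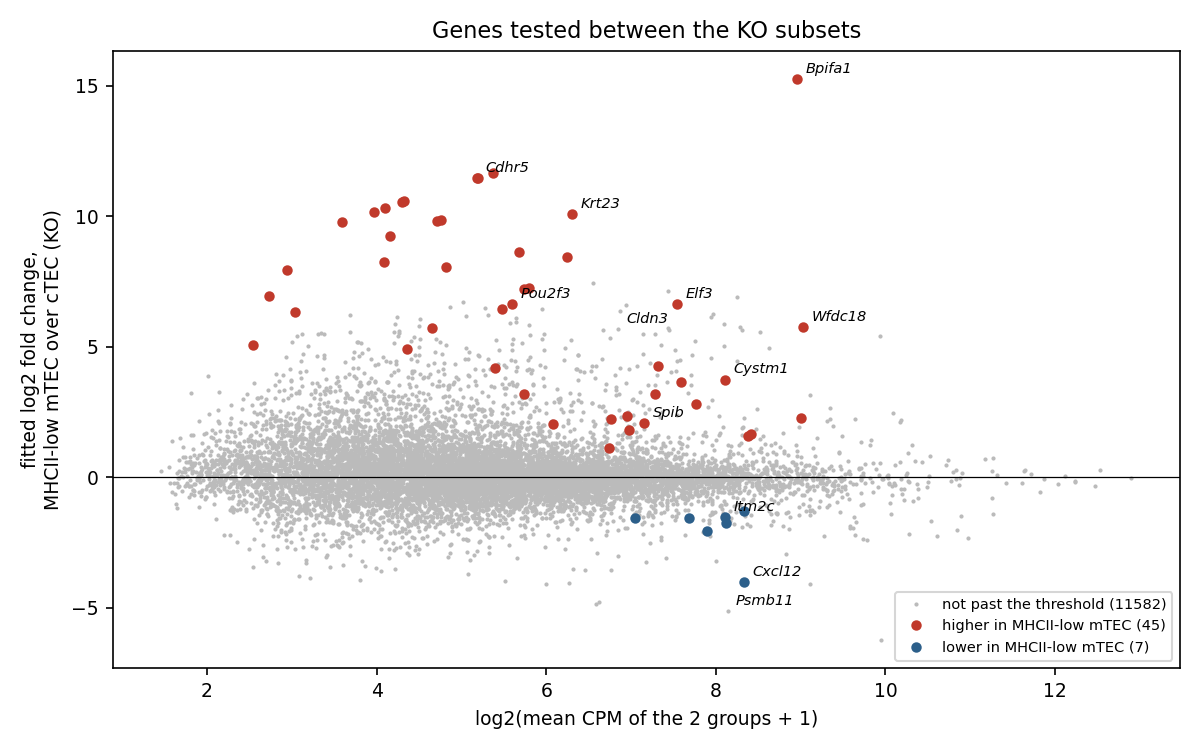
Each of the 11634 genes tested between the KO subsets, with the log2 of the mean CPM of both groups + 1 on the horizontal axis and the fitted log2 fold change of MHCII-low mTEC over cTEC on the vertical axis. The 45 higher genes (red) reach up to Bpifa1 at 15.26, the 7 lower genes (blue) reach down to Cxcl12 at -4.04, and Psmb11 and Cldn3 are named although they did not pass.

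More genes were detected in mTEC. At least 1 count was found for 16488 ± 1911 genes (SD, n = 7) in mTEC and for 13546 ± 1782 (SD, n = 7) in cTEC. The difference of 2942 genes gave p = 0.0128 in a two-sided exact permutation test (0.0128 adjusted over 2 tests), and thinning each library to 3000000 counts left a difference of 2778 (p = 0.0122, exact permutation). The early set alone gave 3726 more genes in mTEC (p = 0.0286, exact permutation, the lowest value that 4 against 4 libraries can reach), and the late set alone 1896 more (p = 0.1, exact permutation, the lowest for 3 against 3). With the number of detected genes as a covariate, 20 genes passed the threshold, all higher in mTEC, and 19 of them were among the 52: Anxa13, Cadps2, Capg, Cdhr5, Clca3a2, Clic3, Cryba2, Cystm1, Dsg1a, Krt23, Mal2, Myh14, Neurl1a, Nxpe2, Pde9a, Sectm1b, Serpina7, Tspan8 and Wee2.

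Of the 4 genes taken as markers of the subsets, Wfdc18 and Cxcl12 passed the threshold and Cldn3 and Psmb11 did not. Wfdc18 (ENSMUSG00000000983, chr11:83709015-83711348, GRCm38, plus strand), which encodes a secreted protein with a whey acidic protein domain, had 204.3, 936.6 and 2713 CPM as lowest, median and highest in mTEC and 0, 13.4 and 43.4 CPM in cTEC. Every mTEC library lay above every cTEC library, and cTEC replicate 6 had no count. The log2 fold change was 5.75 (SE 0.88, adjusted p = 0.00751), it was 6.07 without cTEC replicate 5, and with the number of detected genes as a covariate it was 5.31 (adjusted p = 0.0605). Cxcl12 (ENSMUSG00000061353, chr6:117168535-117181367, plus strand), the chemokine that draws CXCR4-bearing precursors, had 3.26, 42.2 and 80.3 CPM in mTEC and 43.7, 557.8 and 1352 CPM in cTEC. Only cTEC replicate 5 reached into the mTEC range. Cxcl12 was lower in mTEC by a log2 fold change of -4.04 (SE 0.78, adjusted p = 0.0302), which became -4.24 without cTEC replicate 5 and -2.66 with the number of detected genes as a covariate (adjusted p = 0.477). The Cxcl12 call was lost in 5 of the 14 fits that left out 1 library, with the highest adjusted p, 0.0718, without mTEC replicate 1.

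Cldn3, which encodes a tight junction protein, had 77.8, 148.1 and 495.5 CPM in mTEC, while 4 cTEC libraries had none and the highest held 12.1 CPM. The ranges were apart, but the log2 fold change of 5.66 (SE 1.25) had an adjusted p of 0.0653. It passed without cTEC replicate 1 (adjusted p = 0.0401), 2 or 5. Psmb11, the thymus-specific proteasome subunit beta5t, had 0, 4.63 and 51.0 CPM in mTEC and 6.42, 608.1 and 1015 CPM in cTEC. Apart from cTEC replicate 5 every cTEC library lay above every mTEC library. The log2 fold change of -5.14 (SE 1.27) had an adjusted p of 0.0970, and without cTEC replicate 5 it was -5.35 (adjusted p = 0.0460).

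**Figure D3:**
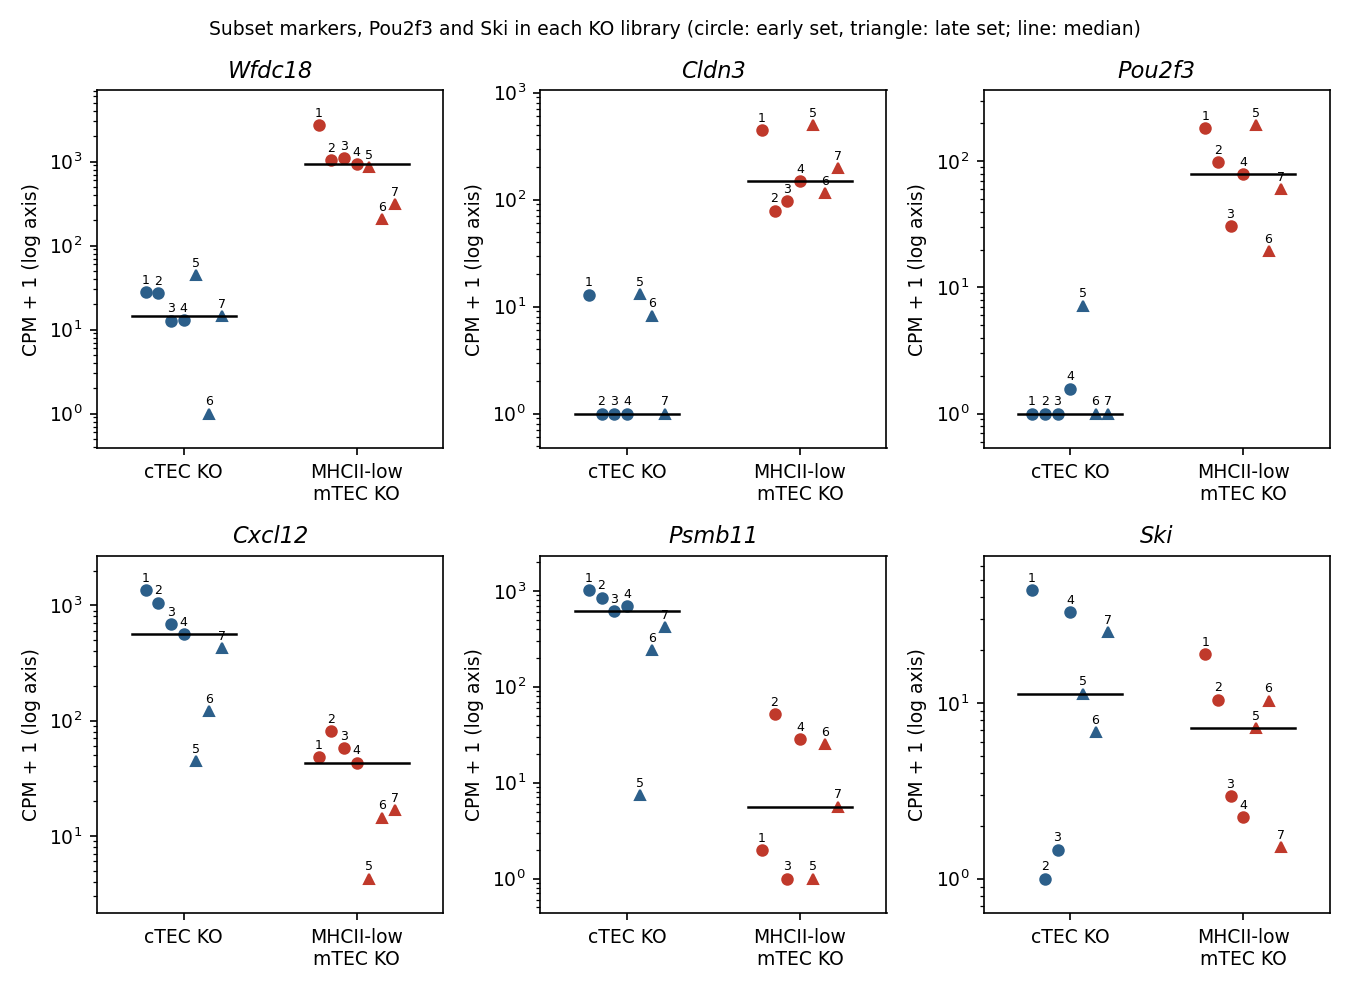
CPM + 1 (log axis) of the 4 subset markers, of Pou2f3 and of Ski in each KO library, cTEC in blue and MHCII-low mTEC in red, with replicate numbers, circles for the early and triangles for the late set, and a line at the median. Wfdc18, Cldn3 and Pou2f3 separate the groups, cTEC replicate 5 sits among the mTEC libraries for Psmb11 and Cxcl12, and Ski overlaps.

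Each list below is given with the number of its members that passed the filter on low counts. A member that passed only through the subset where it is high had to differ, so counts and medians over tested members describe those members and support nothing. The cortical list of 14 genes had 13 tested, with a median log2 fold change of -2.17, against 0.07 over all genes. Of them 11 were negative, and 8 had an unadjusted p under 0.05, all lower in mTEC, against 3.45% of all genes. Cxcl12 alone passed, against 0.0602% of all genes called lower. Prss16, the thymus-specific serine protease, had medians of 39.6 CPM in mTEC and 1011 CPM in cTEC with an adjusted p of 0.164, and the ranges overlapped through cTEC replicate 5. Ccl25, the CCR9 ligand, had medians of 105.6 and 1810 CPM with an adjusted p of 0.421. Ctsl, the cathepsin of class II peptide editing in the cortex, had medians of 584 and 3301 CPM with an adjusted p of 0.323. Foxn1, the master factor of both lineages, had medians of 25.0 CPM in mTEC and 42.2 CPM in cTEC, with 0 CPM in replicate 6 of each subset, and did not pass (adjusted p = 0.966). Prss16, Ccl25 and Foxn1 were chosen for mention after their values were seen.

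The largest differences were in genes with no cTEC count. Cdhr5 (chr7:141269083-141276786, minus strand), a cadherin of the intestinal brush border, had 27.2, 73.0 and 113.1 CPM in mTEC and no count in any cTEC library. The absence in all 7 cTEC libraries makes it at least 789-fold higher in mTEC when the cTEC group is placed at 3 counts over its libraries (adjusted p = 0.000915). Such least folds, here and below, describe the pooled reads of these libraries and leave out the spread between libraries. In Control, cTEC libraries held up to 15 CPM of Cdhr5. Its fitted change without cTEC replicate 5 had an adjusted p of 0.00126. Bpifa1 (chr2:154142880-154149219, plus strand), a secreted protein of airway lining fluid, had 10.3, 153 and 5588 CPM in mTEC and no count in cTEC. One mTEC library, replicate 5, held 32533 of its 39702 counts, which makes it at least 13230-fold higher with that library and at least 2873-fold higher without it. Bpifa1 had an adjusted p of 0.0460, which rose to 0.0912 without mTEC replicate 4, and it passed in 7 of the 14 fits that left out 1 library. In Control it did not separate the subsets, with 0 to 113.1 CPM in mTEC and 0 to 17.3 CPM in cTEC.

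The other genes without any cTEC count had counts in every mTEC library. Serpina7 (chrX:139079257-139085236), the thyroxine-binding globulin of plasma, was at least 901-fold higher, with 10.8, 19.4 and 416 CPM in mTEC, the highest in replicate 2, without which it was at least 293-fold higher (adjusted p = 0.0257, and 0.0594 without mTEC replicate 5). Clca3a2 (chr3:144796559-144819494), of the CLCA family of secreted metalloproteases, was at least 646-fold higher, with 11.3, 34.5 and 324.4 CPM, and at least 343-fold higher without mTEC replicate 1 (adjusted p = 0.0129). Part of its reads may belong to the closely related Clca3a1. The remaining 5 were Nxpe2 (at least 422-fold), Clic3, an intracellular chloride channel protein (at least 389.5-fold), Cryba2, a beta crystallin (at least 356-fold, and 208-fold without mTEC replicate 3), Wee2, a kinase known from oocytes (at least 323.5-fold), and Myh14, a non-muscle myosin heavy chain (at least 256-fold).

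For genes with 1 to 3 cTEC counts in all, the ratio of counts is given with its 95% counting interval. The interval treats reads as independent and leaves out the spread between libraries. Without molecular identifiers PCR copies are counted as separate reads, so the interval is likely too narrow. Mal2, a raft protein of apical transport, had 8.74, 43.9 and 105.8 CPM in mTEC and 1 count in cTEC, a ratio of 1818 (326 to 71850). Dsg1a, a desmosomal cadherin of stratified epithelium whose reads may be shared with its neighbouring copies Dsg1b and Dsg1c, had 2.57, 33.7 and 106.7 CPM in mTEC, a ratio of 1800.0 (323 to 71140). Anxa13, an annexin of epithelial membranes, had 4.32, 22.4 and 139.4 CPM in mTEC, a ratio of 1143 (205 to 45200). The cTEC counts of Mal2 and Dsg1a were both in replicate 5, and that of Anxa13 in replicate 1. All 3 had adjusted p-values between 0.000915 and 0.00465 and ranges apart. Neurl1a, a ubiquitin ligase, had 3 cTEC counts and a ratio of 339 (116 to 1647), Sectm1b had 1 and a ratio of 473 (84.4 to 18710), and Ly6g6e had 2 and a ratio of 191 (52.6 to 1586).

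The next genes had more than 3 cTEC counts and are given by their fitted changes. Krt23 (chr11:99477974-99493137, minus strand), a type I keratin, had 15.6, 143.3 and 547.8 CPM in mTEC and at most 0.881 CPM in cTEC, in replicate 1. Its log2 fold change was 10.07 (SE 1.21, adjusted p = 0.000915). Tspan8, a tetraspanin of gastrointestinal epithelium, rose by 8.45 (SE 1.02), from at most 1.54 CPM in cTEC to a median of 100.3 CPM in mTEC. Cadps2, which primes dense-core vesicles for release, rose by 8.62 (SE 0.99), to a median of 98.8 CPM. Tspan8 and Cadps2 had the same adjusted p of 0.000915. Pde9a, a cGMP phosphodiesterase, rose by 8.06 (SE 1.14, adjusted p = 0.00439). Single libraries moved these values: Krt23 was 12.59 without cTEC replicate 1 and 9.28 without mTEC replicate 3, Cadps2 was 9.49 without cTEC replicate 7, and Tspan8 and Pde9a were 9.14 and 8.85 without cTEC replicate 5. All 4 passed in each of these fits. Cystm1 was expressed in every library, with 252.2, 446.3 and 964.9 CPM in mTEC and 9.38, 37.0 and 80.0 CPM in cTEC. The ranges were apart, and Cystm1 rose by 3.74 (SE 0.45, adjusted p = 0.000915).

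**Figure D4:**
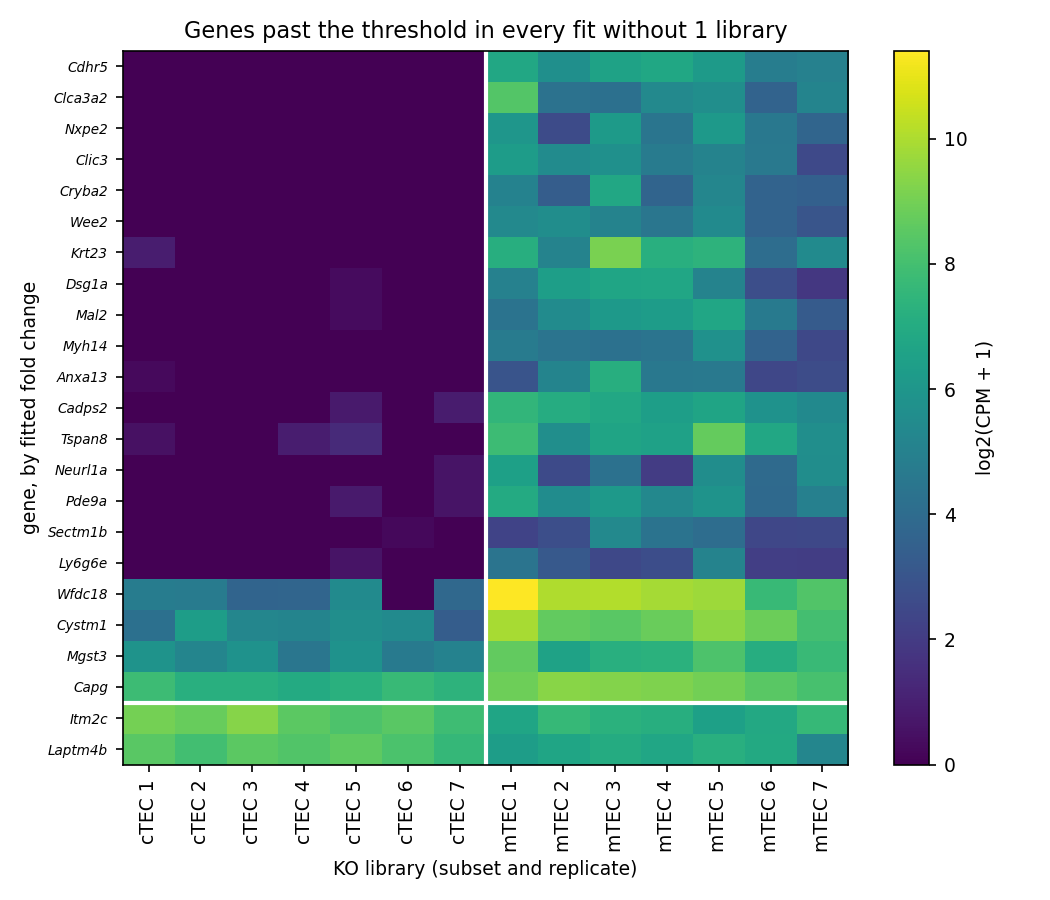
Log2(CPM + 1), in colour, of the 23 genes that passed in every fit leaving out 1 library (rows, by fitted fold change) in each of the 14 KO libraries (columns). The genes above the horizontal white line are higher in the mTEC columns, most of them near 0 in the cTEC columns, and the 2 below it, Itm2c and Laptm4b, are higher in the cTEC columns.

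Transcription factors of specialised mTEC types were among the genes that rose. Pou2f3 (chr9:43123939-43210369, minus strand), the POU factor on which tuft cells depend, had 18.3, 78.3 and 192.9 CPM in mTEC and 0, 0 and 6.17 CPM in cTEC. Of the cTEC libraries 5 had none, and replicate 5 held most of the signal. The log2 fold change was 6.62 (SE 1.34, adjusted p = 0.0402), and 9.38 without cTEC replicate 5. With the number of detected genes as a covariate it was 5.30 (adjusted p = 0.108). The Pou2f3 call was lost in 7 of the 14 fits that left out 1 library, with the highest adjusted p, 0.114, without mTEC replicate 5. Elf3 (chr1:135253575-135258568, minus strand), an ETS factor of epithelia, had 79.0, 253.1 and 1226 CPM in mTEC and 0, 0 and 10.4 CPM in cTEC, ranges that were apart. Its log2 fold change was 6.64 (SE 1.30, adjusted p = 0.0329), and it was 5.94 without mTEC replicate 1 (adjusted p = 0.0744) and 4.31 with the number of detected genes as a covariate (adjusted p = 0.403). Spib, the ETS factor of microfold cells, had 88.1, 214.5 and 361.3 CPM in mTEC and 25.9, 52.3 and 113 CPM in cTEC, and the ranges overlapped. It rose by 2.08 (SE 0.39, adjusted p = 0.0284, and 0.0671 without mTEC replicate 1). Spib is also expressed by B cells, and without the 3 libraries over 5000 CPM of B cell markers its change was 2.12 (adjusted p = 0.0872).

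Tuft cells are chemosensory cells that signal through a taste-like cascade and make eicosanoids and IL-25. Of the 18 members of the tuft list 16 were tested and 16 were positive, with a median log2 fold change of 5.40, and 14 had an unadjusted p under 0.05, all higher in mTEC, against 6.57% of all genes. Pou2f3 alone passed, against 0.387% of all genes higher. The summed list ran from 338 through 3592 to 13600 CPM in mTEC and from 19.5 through 161.7 to 611.6 CPM in cTEC, and mTEC replicate 3 lay below cTEC replicate 5. Ptgs1, the cyclooxygenase of these cells, had 22.7, 89.7 and 343.6 CPM in mTEC and at most 17.7 CPM in cTEC, with a log2 fold change of 5.24 (SE 1.11, adjusted p = 0.0540). It passed in 5 fits without 1 library, with an adjusted p of 0.0133 without cTEC replicate 5. Gnat3, the G protein alpha subunit gustducin, had 1326 CPM in mTEC replicate 5, 1208 CPM in replicate 6 and none in replicate 2. Its log2 fold change was 6.90 (SE 1.67, adjusted p = 0.0922, and 0.0444 without mTEC replicate 2). Tuft genes were unevenly spread over the mTEC libraries. Ptgs1 and Gnat3 were chosen for mention after their values were seen.

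The microfold list of 10 genes had Spib as its 1 called gene, 8 of 9 tested members positive and a median of 2.08. Of the 13 genes of the enterocyte and hepatocyte list 7 were tested and 0 passed the threshold. Summed over all 13, that list ran from 85.0 through 4520 to 4811 CPM in mTEC and from 0.838 through 34.7 to 722.3 CPM in cTEC, so the groups overlapped. Reg3g, an antimicrobial C-type lectin of the gut, had 9.26, 1643 and 4336 CPM in mTEC and 0, 4.05 and 286 CPM in cTEC, with an adjusted p of 0.199. Of 14 neuroendocrine and ciliated genes 5 were tested, and Tppp3, a tubulin polymerising protein, passed. Tppp3 had 70.5, 161.5 and 286.6 CPM in mTEC and 17.6, 34.2 and 61.2 CPM in cTEC, and rose by 2.23 (SE 0.41, adjusted p = 0.0270, and 0.0614 without mTEC replicate 1). Of 17 keratinocyte genes 4 were tested, and Dsg1a passed. All 17 together summed to 65.0, 548.7 and 1595 CPM in mTEC and to 1.30, 16.2 and 114.6 CPM in cTEC. Of 21 secreted antimicrobial and WAP genes 9 were tested, and Wfdc18 passed. Those 21 summed to 703.5, 4863 and 11800 CPM in mTEC and to 47.1, 106.9 and 660.4 CPM in cTEC, with no overlap. The lowest mTEC sums of these lists were in replicates 6 and 7, both of the late set. They were 480.4 and 85.0 CPM (enterocyte and hepatocyte), 68.7 and 65.0 CPM (keratinocyte) and 813.7 and 703.5 CPM (antimicrobial and WAP). The tuft sums of these libraries, 3678 and 3592 CPM, were not the lowest. Over all genes tested, 53.6% had a positive change and 0.387% were called higher.

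Of the 14 genes of the immature medullary list 12 were tested and 11 were positive, with a median of 1.51. Of these, 6 had an unadjusted p under 0.05, all higher in mTEC, against 6.57% of all genes. Over all genes 53.6% were positive. Krt14, the basal keratin of medullary epithelium, had 30.9, 436.7 and 785.8 CPM in mTEC and 0, 26.8 and 164.7 CPM in cTEC, with a log2 fold change of 3.22 (SE 1.08, adjusted p = 0.253). The lowest mTEC libraries lay within the cTEC range. Of 19 keratins 11 were tested, with a median of 1.97, and Krt23 was called, against 0.387% of all genes called higher. Krt20, a keratin of differentiated gut epithelium, had 19.2, 280.6 and 915.5 CPM in mTEC and at most 16.2 CPM in cTEC (log2 fold change 7.13, SE 1.52, adjusted p = 0.0553). It passed without cTEC replicate 2 (adjusted p = 0.00341). Krt14 and Krt20 were chosen for mention after their values were seen.

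Of the claudins, proteins that form the tight junction, 7 of 19 were tested, with a median of 3.24. Cldn7 had 106.5, 308 and 557.2 CPM in mTEC and 0, 13.9 and 36.0 CPM in cTEC, and every mTEC library lay above every cTEC library. It rose by 4.26 (SE 0.82, adjusted p = 0.0314, and 0.0715 without mTEC replicate 1). Dsg2, a desmosomal cadherin of simple epithelium, rose by 3.19 (SE 0.63, adjusted p = 0.0366), and by 2.50 without mTEC replicate 1 (adjusted p = 0.100). Il1rn, the interleukin 1 receptor antagonist, had 63.8, 218.5 and 879.6 CPM in mTEC and 4.62, 24.1 and 56.0 CPM in cTEC, a change of 3.64 (SE 0.69, adjusted p = 0.0275). Pglyrp1, a peptidoglycan recognition protein, rose by 3.18 (SE 0.60, adjusted p = 0.0275) with overlapping ranges. Il1rn and Pglyrp1 both had an adjusted p of 0.0614 without mTEC replicate 1. Mgst3, a microsomal glutathione transferase, rose by 2.35 (SE 0.36, adjusted p = 0.00772) with ranges apart. Upp1, a uridine phosphorylase, rose by 7.24 (SE 1.33, adjusted p = 0.0257), with a cTEC signal in replicate 5 alone, and by 12.08 without that library. The Upp1 call was lost in 3 of the 14 fits that left out 1 library, with an adjusted p of 0.0610 without mTEC replicate 4. The other higher genes with a given name (C77080, Smim22, Cib1, Gng12, Lrp4, Picalm, Prr15l, Ethe1, Aldh3a2 and Capg) had log2 fold changes between 1.10 (Gng12) and 6.46 (Prr15l), and 2 more had no given name.

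Apart from Cxcl12, the genes that fell in mTEC changed by less and were expressed in all 14 libraries. Itm2c (chr1:85894281-85908675, plus strand), an integral membrane protein, had 88.8, 143.1 and 195.8 CPM in mTEC and 231.4, 374.6 and 649.4 CPM in cTEC. The ranges were apart, and Itm2c fell by 1.52 on the log2 scale (SE 0.26, adjusted p = 0.0168). Laptm4b, a lysosomal membrane protein, fell by 1.58 (SE 0.28, adjusted p = 0.0190), and Aftph, a protein of clathrin-dependent trafficking, fell by 1.58 (SE 0.29, adjusted p = 0.0253), both with ranges apart. Stard7, which carries phosphatidylcholine to mitochondria, fell by 1.77 (SE 0.31, adjusted p = 0.0215). Pithd1 fell by 2.06 (SE 0.40, adjusted p = 0.0336). Cat, the peroxisomal catalase, fell by 1.31 (SE 0.27, adjusted p = 0.0442), and its call was lost in 11 of the 14 fits that left out 1 library, up to 0.115 without mTEC replicate 5. The ranges of Stard7, Pithd1 and Cat overlapped.

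No member of the pathway lists for signals that shape the medulla passed. Of 40 genes of TGF-beta, BMP and SMAD signalling, in which SKI acts, 29 were tested, 0 passed and 0 had an unadjusted p under 0.05, and the median was 0.19. Smad4, the common partner of receptor-regulated SMAD proteins, had medians of 112.8 CPM in mTEC and 150.3 CPM in cTEC (log2 fold change 0.42, SE 0.51). Of 45 WNT genes 17 were tested and 0 passed, and Tcf7l1, a repressor of WNT targets chosen after its values were seen, came nearest (log2 fold change 1.92, adjusted p = 0.0818). Of 21 genes of the NF-kappaB and RANK pathway, which drives medullary maturation, all tested, 19 were negative with a median of -0.57, and 5 had an unadjusted p under 0.05, all lower, against 3.45% of all genes. Traf1, a target and adaptor of that pathway, had medians of 318.1 CPM in mTEC and 861.6 CPM in cTEC, with a log2 fold change of -1.28 (SE 0.55, adjusted p = 0.437). Of 17 genes of proteasome and peptide loading, all tested, 13 were negative with a median of -0.49, and 6 had an unadjusted p under 0.05, all lower, against the same 3.45%. Psme2, a subunit of the proteasome activator, had medians of 815.7 and 1744 CPM, with a log2 fold change of -0.89 (SE 0.38, adjusted p = 0.421). The maturation list, with Aire and the costimulatory Cd80 and Cd86, had a median of -0.07 and 0 of 13 called. None of the 10 MHC class II genes, several of which encode the gated molecules, passed.

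The Control libraries gave a measure of the same subset difference in samples that did not choose these genes. In a fit of 4 groups (7 and 7 KO, 4 mTEC and 5 cTEC Control libraries, since 1 Control mTEC library held 82 counts), 44 of the 45 higher genes had a positive change in Control, where 54.0% of all genes did, and 7 of 7 lower genes had a negative one. In Control 41 of the 45 had an unadjusted p under 0.05, against 9.58% of 16355 genes higher, and 6 of the 7, against 3.64% lower. The Control contrast itself passed the threshold for 11 of the 45 (0.128% of all genes higher) and for 1 of the 7 (0.00611% lower). The spread in this fit was also estimated from the KO libraries that chose these genes. The Control p-values and calls are therefore not independent of that choice, and nothing is read from their shares. Every Control mTEC library lay above every Control cTEC library for 31 of the 45, against 6.15% of genes, and below for 3 of the 7, against 2.48%. In Control Wfdc18 rose by 8.39 (SE 1.17, adjusted p = 0.00240), Cystm1 by 3.86 (SE 0.52, adjusted p = 0.00240) and Mgst3 by 3.13 (SE 0.49, adjusted p = 0.0104). The numbers of calls in KO and in Control also reflect different numbers of libraries and are not compared. The exception in sign was Gng12, a G protein gamma subunit, with -0.28 in Control.

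Whether the subset difference depended on the genotype was tested by the interaction of subset and genotype. Of 16355 genes 0 passed (0.0% called) in edgeR, and 710 had an unadjusted p under 0.05, which is 4.34%. Of the genes whose median reached 10 CPM in some group, Zfp185, Strn4 and Actc1 had the smallest p-values. Zfp185, which encodes an actin-associated LIM domain protein, averaged 18.2 CPM in mTEC and 0.0587 CPM in cTEC of KO, and 0.0624 and 31.2 CPM in Control. Its groups overlapped, since a KO mTEC and a Control cTEC library each had 0 CPM, and the adjusted p was 0.431. Strn4, a striatin scaffold subunit, averaged 85.5 and 59.2 CPM in KO and 35.7 and 112 CPM in Control (adjusted p = 1). A missed threshold does not show that the subsets differ alike in both genotypes. Cdhr5, with no count in KO cTEC, averaged 4.92 CPM in Control cTEC and 106.7 CPM in Control mTEC.

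**Figure D5:**
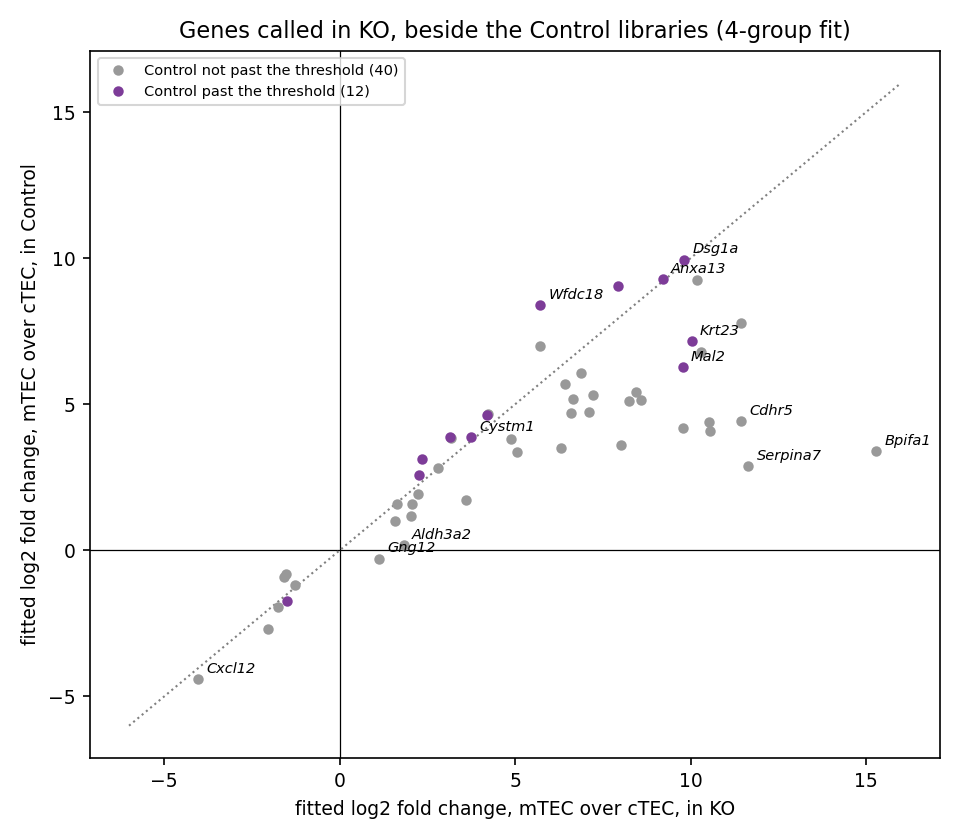
Fitted log2 fold changes of MHCII-low mTEC over cTEC for the 52 genes called in KO, in KO (horizontal) and in Control (vertical), from the fit of 4 groups, with a dotted line where both are equal. Purple points passed in Control as well (12 genes), and Gng12 is the 1 gene called higher in KO that lies below 0 in Control.

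The promoters of the called genes were read for 5 short motifs of factor families with members in the lists: the octamer of POU factors (ATGCAAAT), an ETS core (AGGAAGT), an E-box (CAGCTG), a SMAD palindrome (GTCTAGAC) and a grainyhead half-match (AACNNGTT). They were counted on both strands of the 250 bases before each start in RefSeq's table for GRCm38.p6, which held 37 of the 52 genes. Pou2f3 itself was not among the 37. A gene with several starts was counted if any of them had the motif. The octamer stood in 4 of 31 matched higher genes, 12.9%, against 1.52% of 8964 genes tested and 1.81% of all 27025 genes in the table. The 4 genes were Elf3, Tspan8, Clca3a2 and Il1rn, and they are shown as the matched higher genes that hold the octamer. Whether a POU factor acts on them was not tested. The ETS core stood in 9.68% of the higher genes against 9.33% of genes tested, the E-box in 12.9% against 14.1%, the grainyhead letters in 6.45% against 3.64%, and the SMAD palindrome in 0 of 31 against 0.245%. A match describes the letters and does not show that a factor binds.

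Each stretch below is 120 bases on the strand of its gene, 5′ to 3′, with the octamer in capitals. For Wfdc18, the mTEC marker that passed, the ETS core is in capitals, read from the opposite strand. The 5 stretches hold Elf3 at chr1:135258557-135258676 (minus strand), Tspan8 at chr10:115817034-115817153 (plus), Clca3a2 at chr3:144819499-144819618 (minus), Il1rn at chr2:24345077-24345196 (plus) and Wfdc18 at chr11:83708754-83708873 (plus). Those of Tspan8 and Il1rn lie inside the spans annotated for their genes. Il1rn had the octamer before 2 of its 3 starts.
Elf3: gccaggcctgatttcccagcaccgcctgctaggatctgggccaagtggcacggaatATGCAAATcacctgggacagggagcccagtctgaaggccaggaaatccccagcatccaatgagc
Tspan8: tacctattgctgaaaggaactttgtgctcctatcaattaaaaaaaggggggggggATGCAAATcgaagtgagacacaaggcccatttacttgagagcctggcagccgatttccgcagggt
Clca3a2: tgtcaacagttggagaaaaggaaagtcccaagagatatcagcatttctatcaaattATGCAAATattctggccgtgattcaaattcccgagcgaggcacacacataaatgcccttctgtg
Il1rn: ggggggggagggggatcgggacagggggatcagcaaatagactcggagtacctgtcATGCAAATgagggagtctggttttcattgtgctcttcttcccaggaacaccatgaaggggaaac
Wfdc18: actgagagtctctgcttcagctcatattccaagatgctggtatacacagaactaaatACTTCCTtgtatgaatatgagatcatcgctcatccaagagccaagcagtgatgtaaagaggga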

How the data were processed

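The authors deposited unnormalised counts, whole numbers with 1 row per Ensembl gene and 1 column per library. SAMtools 1.2, HTSeq 0.4.1, FastQC 0.11.3, Picard 1.134 and the genome build GRCm38 are named per the submitters' processing notes. The aligner is not given in the sources used here, nor is the strand setting, and the kit does not mark strand, so reads of overlapping or antisense genes cannot be told apart. Each library came from 200 cells, with SMART-Seq v4 cDNA and Nextera XT tagmentation per the labels' protocols. Of 53465 gene identifiers 53360 matched GENCODE release M21, which gave symbols and positions.

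The 14 libraries held 3217251 to 6409278 counts. Of 29514 genes with any count, filterByExpr (minimum count 10, minimum total 15) kept 11634. The 7 and 7 libraries were fitted by edgeR 4.0.16 (R 4.3.3, TMM factors, glmQLFit and glmQLFTest) without covariates, with Benjamini-Hochberg adjustment over all genes tested and a threshold of 0.05. CPM used TMM-normalised library sizes. A group at 0 was placed at 3 counts over its libraries for least folds. The interaction used 23 libraries of 4 groups, leaving out 1 Control library under 100000 counts. Detected genes were compared with exact permutation tests (SciPy 1.17.1). DESeq2 1.42.0 and limma 3.58.1 (voom) served as alternatives, beside other scaling, filters, covariates, sets and left-out libraries. The script was tested on simulated data. Sort markers (Epcam, Ptprc, Enpep and MHC class II genes) were not taken as findings.

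Named genes were Ski, the 4 markers, in each direction the 15 genes of largest change past the threshold whose median reached 10 CPM in the group where they were higher, up to 6 passing members of each of 35 lists or else the 2 most abundant, and 3 genes of smallest interaction p. Gene models without a given name are counted but not named, and 1 called gene is not reported here. The members, the lists and this rule were chosen with earlier results of these data known. Lists are described by counts and medians, without a set test.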

Additional observations from a re-analysis of the deposited data

Results flagged for a closer look

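Each named gene and marker sum was checked for a single library far from the other 6 of its group, on a log2(CPM + 1) scale, by its gap as a share of the group's range (over 0.568). Of 141 groups of values 18 were picked out. For normally distributed values chance picks out about 1 group in 20. Some groups here are mostly zeros, and some genes were chosen after their values were seen, so the 18 are not set against that share.

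In cTEC replicate 5 the cortical genes Psmb11 (6.42 CPM), Prss16 (3.86 CPM) and Ccl25 (33.2 CPM) lay far below the other cTEC libraries, while Pou2f3 (6.17 CPM) and Upp1 (5.14 CPM) lay far above them. In cTEC replicate 1 the summed mesenchymal markers were high (6618 CPM), and the summed myeloid and dendritic cell markers (287 CPM), Stard7 (155.1 CPM), Il1rn (4.62 CPM), Smad4 (13.2 CPM), Traf1 (69.4 CPM) and Psme2 (416.3 CPM) were low.

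Single low values were those of Wfdc18 in cTEC replicate 6 (0 CPM), Smim22 in cTEC replicate 7 (0 CPM), Gng12 in cTEC replicate 4 (42.7 CPM) and Gnat3 in mTEC replicate 2 (0 CPM). Single high values were those of Krt20 in cTEC replicate 2 (16.2 CPM) and Clca3a2 in mTEC replicate 1 (324.4 CPM).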

How the results depend on the processing

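The 52 genes became 53 with RLE size factors, 61 without the count filter and 71 with a filter of 10 CPM in 5 libraries. DESeq2 called 1177 genes (3.99% of the 29514 with any count) and limma voom 157 (1.35% of 11634), while 1 model over all 9 groups called 1308. With the early or late set as a covariate 79 passed, in the early set alone 9 and in the late set alone 0. With the number of detected genes as a covariate 20 passed, and no lower gene was left. Without single libraries the count ran from 27 to 167. Alternatives added after the data were seen gave 74 genes without the 3 libraries over 5000 CPM of B cell markers (34 of the 52 among them) and 9 without the 6 libraries over 5000 CPM of any other cell type's markers (3 of the 52, with 3 cTEC and 5 mTEC libraries left). The cause of these shifts was not tested. All 52 kept their sign wherever they were tested, 48 of 48 under the stricter filter. These fits reuse libraries that chose the 52, so nothing is read from the kept signs.

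The trio of 3 consecutive library numbers was tried as a block. The deviations of same-trio libraries correlated by 0.0216 to 0.245, and in 2 of 7 trios the mTEC library correlated best with the cTEC library of its own trio, so the trio was treated as a shared number only. With the trio as a replicate block 127 genes passed (108 higher, 19 lower), 34 of the 52 among them. Of the 9 genes without a cTEC count Bpifa1 passed with the block (adjusted p = 0.0296) and the other 8 did not (0.0853 for Serpina7 to 0.185 for Myh14), while Cldn3 (0.0364) and Psmb11 (0.0475) did. The difference in detected genes had an exact p of 0.0156, the smallest that sign flips of 7 pairs allow.

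The interaction gave 0 genes in every alternative run (other scaling, all groups, the set as covariate, no filter, each library left out). The Control contrast, with 22 genes, ranged from 2 to 178. The difference in detected genes was 2505 to 3366 without single libraries, and it was 1896 in the late set (exact p = 0.1). Ski kept its sign, from -1.79 to -0.88 without single libraries. Of named genes, Aire (-2.20) and Smad4 (-0.69) reversed in the late set alone, and Foxn1 (1.07) with detected genes as a covariate; none of the 3 passed in any of these fits. A missed threshold does not show that levels were alike.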

Other observations

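The lists of interferon-stimulated genes, chemokine ligands and cell cycle genes held 1 called gene. Of 20 interferon-stimulated genes, all tested, 0 passed, and the median was 0.69. Of these 5 had an unadjusted p under 0.05 and were higher in mTEC, against 6.57% of all genes, and 2 were lower, against 3.45%. Of 28 chemokine ligands 20 were tested with a median of 1.40, and Cxcl12 alone passed, against 0.0602% of all genes called lower. In that list 4 were higher and 4 lower at an unadjusted p under 0.05. Of 22 cell cycle genes, all tested, 0 passed and 0 had an unadjusted p under 0.05, and 18 were negative with a median of -0.76.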
